A study of Homo sapiens with 20 samples.

Results

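The effect of lncNB1 siRNA-1 on the mRNAs found in heavy polysomes of BE(2)-C cells was examined by setting 3 arrays of siRNA-1 heavy polysomal RNA against 4 arrays of control siRNA heavy polysomal RNA, chosen by their titles from the 20 arrays of the series. BE(2)-C is an established MYCN-amplified human neuroblastoma cell line, and lncNB1 is a long noncoding RNA that the study describes in such cells. All cells had been transfected for 48 h with siRNA-1, siRNA-2 (a second siRNA to lncNB1) or control siRNA, held in cycloheximide and separated on a sucrose gradient, and 100 ng of RNA went onto each Clariom S array. The other 13 arrays held siRNA-2 heavy RNA (3 arrays) and light polysomal RNA of the 3 treatments. They served to set siRNA-1 in heavy polysomes beside siRNA-2 and beside the light fraction. The siRNA-2 heavy arrays also shared in the estimate of the spread behind the p-values of siRNA-1 against control. The level of lncNB1 itself was not analysed here. The labels do not say how the replicates were made, so p-values measure the spread between these arrays, part of which may be technical.

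An mRNA that is being translated carries several ribosomes at once, and a sucrose gradient sorts mRNAs by how many they carry. Heavy polysomes hold mRNAs with many ribosomes and light polysomes those with few. The heavy signal of a gene therefore follows both how much of its mRNA a cell holds and how many ribosomes that mRNA carries. Cycling cells carry abundant loaded mRNAs for DNA replication, chromatin assembly and mitosis. Many of these genes are switched on by E2F transcription factors once the retinoblastoma proteins release them.

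The deposited values were log2 signals of transcript clusters, the array's unit for a gene, normalized so that all arrays had nearly the same distribution. Array medians ranged over 6.58 to 6.68 in the 20 arrays, and the lowest correlation between 2 arrays of the same group was 0.981. A difference on the log2 scale is thus relative to the other mRNAs of the heavy fraction, and more mRNA of a gene and more ribosomes on each mRNA cannot be told apart from the heavy arrays alone. Signals of different probes also depend on the probe, so levels are not compared between genes. The 12 measured of 14 neuroblast markers had control means between 7.37 and 12.3. Among them HAND2, ISL1 and DBH fell with siRNA-1 (25%, against 3.23% of all clusters). None fell without siRNA-1 replicate 2, and 1 fell without control replicate 3. The summed linear signal of the list ran between 16100 and 17100 in siRNA-1 arrays and between 16800 and 19800 in control arrays. What part these markers have in the results was not tested. The 8 immune markers had control means between 3.28 and 7.33, and their summed linear signal ran between 572 and 606 in siRNA-1 arrays and between 579 and 641 in control arrays.

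siRNA-1 changed a wide set of mRNAs in heavy polysomes. Of 21448 clusters, 1219 were higher with siRNA-1 (5.68% of those tested) and 693 were lower (3.23%) at an adjusted p under 0.05, from limma's moderated test with Benjamini-Hochberg adjustment over all clusters. The rises reached further than the falls. The clusters that rose included 193 with at least 2-fold higher signal, against 67 that fell at least 2-fold, and the median change was 0.68 on the log2 scale among those that rose and -0.65 among those that fell. The median control signal was 8.34 for clusters that fell, 6.93 for those that rose and 6.62 for all clusters. These signals depend on the probes as well as on the amount of each mRNA. With clusters ranked by signal and cut into 4 equal bins, 192 rose and 24 fell in the dimmest bin, and 248 rose and 375 fell in the brightest. With only the 7 siRNA-1 and control heavy arrays in the fit, 905 clusters were higher and 462 lower. The counts rested in part on siRNA-1 replicate 2. Without that array 647 clusters were higher and 266 lower, and without control replicate 2 the count of lower clusters was 428. With array weights, which give less weight to arrays that deviate more, 1158 were lower. With the replicate number added to the fit as a block, 2063 were higher and 1438 lower.

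**Figure D1:**
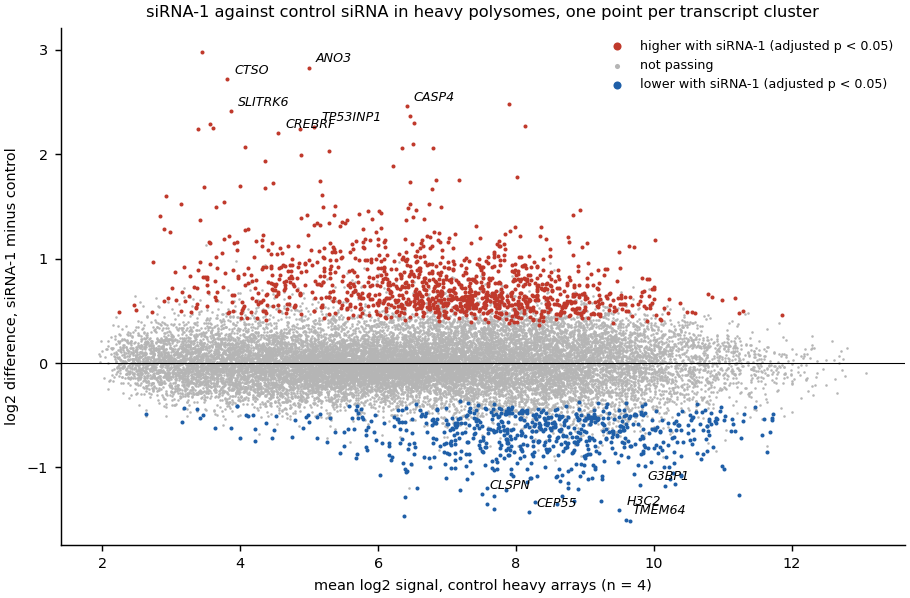
Difference between siRNA-1 (n = 3) and control siRNA (n = 4) in heavy polysomes on the log2 scale (vertical axis) against the mean log2 signal of the control heavy arrays (horizontal axis), 1 point per transcript cluster, 77 Y-linked clusters not drawn. Red points (1219) were higher and blue points (693) lower with siRNA-1 at an adjusted p under 0.05 in limma's test, and the blue points lie further to the right, at higher signal.

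The mRNAs with the largest rises encoded proteins of several kinds, among them membrane and secreted ones, and several were dim in control cells. Shares of such proteins among all genes were not computed. ANO3, a member of the anoctamin family of membrane proteins, gave log2 signals of 7.91, 8.19 and 7.37 in the siRNA-1 arrays, against 5.03, 5.30, 4.67 and 4.96 in the control arrays. All siRNA-1 arrays lay more than 2 units above the highest control array, and the difference was 2.83 ± 0.185 (SE; 7.10-fold; adjusted p = 6.07e-06). CTSO, the lysosomal cysteine protease cathepsin O, gave 6.58, 6.96 and 6.05 in siRNA-1 arrays and 3.72, 4.05, 3.69 and 3.80 in control arrays, a difference of 2.72 ± 0.195 (adjusted p = 1.39e-05). The control values of CTSO lay in the dimmest of the 4 signal bins, which ended at 4.98, and its siRNA-1 values lay above it. CASP4, an inflammatory caspase, gave 8.33, 9.15 and 9.13 with siRNA-1 and 6.16, 6.35, 6.56 and 6.58 with control siRNA (difference 2.46 ± 0.19, adjusted p = 1.47e-05). RYR2, the calcium release channel of the endoplasmic reticulum, gave 5.96, 5.9 and 5.71 with siRNA-1 and 3.45, 3.53, 3.44 and 3.99 with control siRNA (2.25 ± 0.144, adjusted p = 6.07e-06). In none of these genes did the groups overlap. Whether probes this dim were above background was not tested, here for CTSO and RYR2 in control arrays and likewise for other genes with signals under 4.98, such as CASP8 and RIGI, so the sizes of these differences are uncertain.

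The rest of the 15 largest rises spanned 2.48 to 2.07 on the log2 scale. They were PI15, a secreted peptidase inhibitor; SLITRK6, a neuronal transmembrane protein with leucine-rich repeats; LUM, a collagen-binding proteoglycan; SCG5, a chaperone of the secretory granule; ABCA12, a lipid transporter; TP53INP1, a p53-induced protein that acts in autophagy and cell death; RGS8, a regulator of G protein signalling; SAMD9, an antiviral factor; CREBRF, a regulator of CREB3; SLC27A6, a fatty acid transporter; and LRRIQ1. Each of the 15 kept its call when any single heavy array was left out. Each also differed between siRNA-1 and siRNA-2, with adjusted p between 5.36e-06 (ANO3) and 0.00296 (ABCA12). With siRNA-2 the same mRNAs differed from control by -0.66 (CASP4) to 1.18 (ABCA12), and of these only ABCA12 passed the test (adjusted p = 0.0122).

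The largest falls were smaller in size and included several proliferation genes. CEP55, which acts in the last step of cell division, gave log2 signals of 6.55, 6.54 and 7.18 with siRNA-1, against 7.94, 8.01, 8.37 and 8.43 with control siRNA (difference -1.43 ± 0.173 SE, adjusted p = 0.000437). H3C2, a histone H3 gene, gave 8.58, 7.50 and 8.18 with siRNA-1 and 9.74, 9.75, 9.30 and 9.18 with control siRNA (-1.41 ± 0.238, adjusted p = 0.00281). Both genes were lower in every siRNA-1 array than in any control array. E2F8, an atypical E2F that represses transcription, gave 6.15, 5.74 and 6.78 with siRNA-1 and 7.29, 7.37, 7.91 and 7.73 with control siRNA (-1.35 ± 0.218, adjusted p = 0.00218). GINS4, a subunit of the replicative helicase, fell by 1.33, CENPQ of the kinetochore by 1.29 and CLSPN, the adaptor that lets the ATR kinase activate CHK1, by 1.26.

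Other genes among the 15 largest falls do not belong to the division machinery. TMEM64, a transmembrane protein, gave 8.67, 7.89 and 7.70 with siRNA-1 and 10.0, 9.89, 9.20 and 9.26 with control siRNA (-1.5 ± 0.242, adjusted p = 0.0022), the largest fall among clusters with a gene symbol. CCNK, the cyclin partner of the transcriptional kinase CDK12, fell by 1.32, UCP2, a carrier of the inner mitochondrial membrane, by 1.21, NME4, a mitochondrial nucleoside diphosphate kinase, by 1.26 and LGR5, a receptor for R-spondins, by 1.20. SMIM10, TLCD1 and PDZD11 fell by 1.4, 1.36 and 1.32. MINAR2 fell by 1.46 (adjusted p = 0.0138), but its call was lost without siRNA-1 replicate 2 or without siRNA-1 replicate 4, with adjusted p up to 0.0835. The siRNA-1 values of TMEM64 and MINAR2 were not separated from siRNA-2 by the test of that difference (adjusted p = 0.0695 and 0.417), whereas the other 13 genes were lower with siRNA-1 than with siRNA-2 (adjusted p between 0.000349 and 0.0328).

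**Figure D2:**
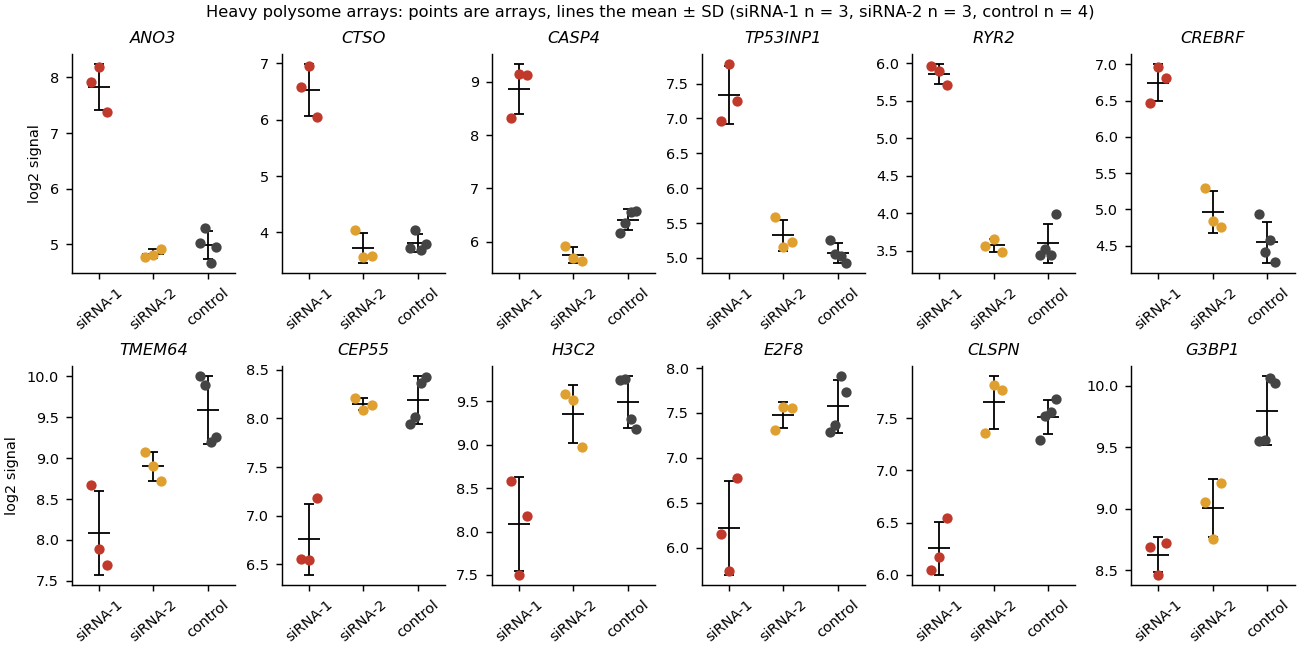
Log2 signal in each heavy polysome array (vertical axis) for 6 genes that rose and 6 that fell with siRNA-1, for siRNA-1 (n = 3), siRNA-2 (n = 3) and control siRNA (n = 4), with lines for the mean ± SD. In all 12 genes the siRNA-1 points are separate from the control points, while the siRNA-2 points of G3BP1 and TMEM64 lie between them.

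Genes of the cell division cycle moved together. Of 336 measured members of 6 lists covering E2F factors, DNA replication, cyclins, mitosis, homologous recombination and chromatin, 140 fell (41.7%, against 3.23% of all clusters) and 1 rose. Their median difference was -0.51, against 0.00 over all clusters, and 303 of the 336 had a value below 0. The number that fell was 62 without siRNA-1 replicate 2 and 144 at most without any other array. It was 113 with only the 7 siRNA-1 and control heavy arrays in the fit. In the test of siRNA-1 against siRNA-2, 100 of the 336 were lower with siRNA-1 and 2 higher.

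Among the E2F factors themselves, 6 of 19 members of the network fell (31.6%, against 3.23% of all clusters) and none rose (5.68% of all clusters). E2F1, an activator that drives entry into S phase, gave 8.23, 7.76 and 7.73 with siRNA-1 and 8.73, 8.73, 8.57 and 8.43 with control siRNA. The groups did not overlap, and the difference was -0.71 ± 0.146 (1.63-fold lower; adjusted p = 0.00873). E2F2, another activator, fell by 0.81 (adjusted p = 0.00796), whereas E2F3 differed by -0.31 (adjusted p = 0.198). The atypical repressors E2F7 and E2F8 fell by 0.65 and 1.35, RBL1, a relative of the retinoblastoma protein, by 0.42 and MYBL2, a partner of the MuvB complex, by 0.77. Except for E2F8, each of these calls was lost when siRNA-1 replicate 2 was left out, where 1 of the 19 was still called lower, and the highest adjusted p over single left-out arrays was 0.0557 for E2F1, 0.0548 for E2F2, 0.098 for E2F7, 0.101 for MYBL2 and 0.116 for RBL1. Leaving out siRNA-1 replicate 4, siRNA-2 replicate 2 or 3 or control replicate 1, 3 or 4 also ended the call of RBL1, and MYBL2 was not called without control replicate 2. When siRNA-1 replicate 1 was left out, 1 member was called higher. The E2F1 signal with siRNA-2 was 8.32, 8.14 and 8.05, and the difference between siRNA-1 and siRNA-2 was not separated from 0 (adjusted p = 0.369).

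DNA replication genes fell at several steps of the process. Of 67 measured, 29 fell (43.3%) and none rose, with a median of -0.49. Origin recognition had 3 of 6 members lower, among them ORC1 (-0.84, adjusted p = 0.0028). Licensing loads the MCM helicase onto origins. The genes listed under it, a group broader than that step, had 6 of 12 lower, including MCM6 (-1.13), MCM3 (-0.86) and MCM10 (-0.92). Helicase activation had 9 of 15 lower, and it held all 4 GINS subunits, with GINS1 at -0.77, GINS2 at -0.72 and GINS3 at -0.51, and DBF4, the activator of the CDC7 kinase, at -0.84. Of 12 polymerase genes 3 fell, with POLE2 at -1.07, and of 15 clamp and loader genes 7 fell, with PCNA, the sliding clamp, at -0.49. The count over the list was 16 without siRNA-1 replicate 2. GINS2 lost its call without that array or control replicate 2, with adjusted p up to 0.102. PCNA and GINS3 lost theirs without siRNA-1 replicate 1 or 2, control replicate 2, 3 or 4 or siRNA-2 replicate 2, with adjusted p up to 0.132 and 0.145.

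Short stretches around the starts of 5 members of the 6 cell cycle lists are shown because they hold the E2F motif in genes that fell. They were chosen for large falls among list members with an E2F motif and 1 listed start in the RefSeq promoters (build GRCh38.p14). Some list members were left out of this choice, so the 5 are not a ranking of all falls with the motif. Each stretch runs from 250 bases before to 50 bases after the start. Capitals mark the motif, and each sequence is written 5′ to 3′ on the strand of the gene.
CLSPN: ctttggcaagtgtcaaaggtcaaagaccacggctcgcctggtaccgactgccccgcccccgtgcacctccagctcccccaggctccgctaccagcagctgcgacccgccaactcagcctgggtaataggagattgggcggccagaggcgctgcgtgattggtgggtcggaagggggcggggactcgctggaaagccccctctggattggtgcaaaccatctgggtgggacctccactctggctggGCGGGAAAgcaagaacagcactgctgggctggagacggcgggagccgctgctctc
MCM6: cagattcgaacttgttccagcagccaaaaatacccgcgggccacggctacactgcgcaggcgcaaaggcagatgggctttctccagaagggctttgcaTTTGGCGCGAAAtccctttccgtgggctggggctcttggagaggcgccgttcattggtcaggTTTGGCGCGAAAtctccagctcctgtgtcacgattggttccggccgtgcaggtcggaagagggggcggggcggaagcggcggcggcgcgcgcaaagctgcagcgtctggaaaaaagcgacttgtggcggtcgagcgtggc
POLE2: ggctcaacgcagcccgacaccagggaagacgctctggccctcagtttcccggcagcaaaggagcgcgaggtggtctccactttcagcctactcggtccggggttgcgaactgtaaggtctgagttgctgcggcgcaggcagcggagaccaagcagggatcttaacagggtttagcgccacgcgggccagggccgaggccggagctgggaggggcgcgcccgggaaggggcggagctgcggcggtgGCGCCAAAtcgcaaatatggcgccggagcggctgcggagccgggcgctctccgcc
KIF15: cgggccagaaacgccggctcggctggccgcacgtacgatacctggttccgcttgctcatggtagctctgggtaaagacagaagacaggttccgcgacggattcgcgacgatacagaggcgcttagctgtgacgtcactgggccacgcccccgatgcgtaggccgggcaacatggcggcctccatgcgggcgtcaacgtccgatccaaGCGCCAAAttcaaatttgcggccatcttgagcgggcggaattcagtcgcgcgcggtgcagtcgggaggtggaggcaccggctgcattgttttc
MCM3: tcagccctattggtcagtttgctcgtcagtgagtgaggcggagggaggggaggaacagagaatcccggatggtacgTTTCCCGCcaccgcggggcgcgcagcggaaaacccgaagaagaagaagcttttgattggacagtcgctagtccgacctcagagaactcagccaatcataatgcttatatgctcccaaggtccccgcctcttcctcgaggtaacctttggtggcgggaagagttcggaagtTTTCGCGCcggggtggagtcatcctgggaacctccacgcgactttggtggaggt

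These windows lie at chr1:35769929-35770228 (minus strand), chr2:135876394-135876693 (minus strand), chr14:49688165-49688464 (minus strand), chr3:44761544-44761843 (plus strand) and chr6:52284693-52284992 (minus strand). In CLSPN and POLE2 the motif began 5 bases before the start, in KIF15 43 bases before it, and in MCM6 the letters formed 2 blocks in which the motif reads on both strands and overlaps itself. MCM3 held 2 separate matches. CLSPN, whose promoter is printed first, gave 6.05, 6.17 and 6.54 with siRNA-1 and 7.29, 7.52, 7.56 and 7.68 with control siRNA. MCM6, a subunit of the replicative helicase, gave 7.26, 7.32 and 7.90 with siRNA-1 and 8.14, 8.53, 8.99 and 8.86 with control siRNA. The groups did not overlap in either gene. The search covered TTTCGCGC, TTTGGCGC, TTTCCCGC and TTTGCCGC on both strands, 1 promoter a gene. Of 17661 named genes 14232 had a promoter, and 4.45% of those held an E2F motif, against 11.9% of the 503 genes that fell and 3.31% of the 906 that rose. Among genes that fell, the share was 24.8% of the 121 in the 6 lists and 7.85% of the 382 outside them, and among list members that did not pass it was 20.7% of 164. The CCAAT box (CCAAT, on either strand) was in 47.7% of the genes that fell, 35% of those that rose and 36.4% of all. It was in 69.4% of the list members that fell, 56.1% of those that did not pass and 40.8% of the genes that fell outside the lists. The ATF4 motif TGATGCAA was in 0.596% of the genes that fell, 0.331% of those that rose and 0.682% of all. These shares describe letters in a window and were not tested.

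Mitosis genes gave the largest share of lower genes among the lists. Of 110 measured, 57 fell (51.8%) and none rose, with a median of -0.57. The mitotic kinesins, motors that build and move the spindle, had 11 of 12 members lower and a median of -0.78. KIF2C gave 5.45, 6.03 and 6.19 with siRNA-1 and 6.50, 6.85, 7.36 and 7.24 with control siRNA (-1.10 ± 0.217, adjusted p = 0.00679), and KIF23, a motor of the central spindle, gave 8.34, 8.42 and 8.79 with siRNA-1 and 9.42, 9.41, 9.49 and 9.57 with control siRNA (-0.95 ± 0.131, adjusted p = 0.000881). The kinetochore, which couples chromosomes to the spindle, had 17 of 28 members lower. Of 11 mitotic kinases 4 fell, among them BUB1 of the spindle checkpoint (-0.89, adjusted p = 0.000956), and all 11 had values below 0. FOXM1, the transcription factor that drives mitotic genes, gave 9.72, 8.72 and 9.21 with siRNA-1 and 10.58, 10.37, 10.04 and 10.12 with control siRNA (-1.06 ± 0.212, adjusted p = 0.00742). MKI67, the proliferation marker Ki-67, fell by 0.87. The checkpoint and APC/C genes moved less, with 3 of 14 lower and a median of -0.29. The count for mitosis was 28 without siRNA-1 replicate 2.

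Repair and chromatin genes followed. Of 43 homologous recombination and Fanconi genes 19 fell (44.2%), with a median of -0.42. BRCA1 gave 7.19, 6.94 and 6.91 with siRNA-1 and 8.03, 8.26, 8.07 and 8.27 with control siRNA (-1.14 ± 0.118, adjusted p = 0.000139), and its partner helicase BRIP1 fell by 0.88. RAD50, part of the complex that senses DNA ends, was the 1 member that rose (0.56, adjusted p = 0.0135), a call lost without siRNA-1 replicate 2. Of 66 histone and chromatin assembly genes 23 fell (34.8%), with a median of -0.53. They included 17 of 49 core and linker histones, such as H1-4 (-1.01, adjusted p = 0.000869), together with CBX1, a heterochromatin protein (-1.16, adjusted p = 0.000598), and CHAF1A, which deposits histones behind the replication fork (-0.76, adjusted p = 0.00474). Histone genes are near-identical copies and can share probe matches, so the split between them is uncertain. The counts were 9 for repair and 8 for histones and chromatin without siRNA-1 replicate 2, and 13 for histones and chromatin without control replicate 2.

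Cyclins and kinase regulators were affected in fewer members. Of 31 measured 6 fell (19.4%) and none rose, although 28 had values below 0 and the median was -0.40. CCNA2, the cyclin of S phase and mitotic entry, gave 9.95, 9.93 and 10.42 with siRNA-1 and 10.52, 10.77, 10.95 and 10.93 with control siRNA (-0.69 ± 0.148, adjusted p = 0.0109), and the phosphatase CDC25B fell by 0.86. CCND1 gave 9.61, 9.78 and 10.37 with siRNA-1 and 10.24, 10.59, 11.01 and 11.23 with control siRNA (-0.85 ± 0.227, adjusted p = 0.0338), and its groups overlapped. Its call was lost without siRNA-1 replicate 1 or 2, control replicate 2, 3 or 4 or siRNA-2 replicate 2, with adjusted p up to 0.14. With siRNA-1 replicate 2 left out, none of the 31 passed (CCNA2 then had an adjusted p of 0.0683 and CDC25B of 0.0549), without control replicate 3 the count was 3, without control replicate 4 it was 2, and without control replicate 1 or siRNA-1 replicate 4 it was 11.

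**Figure D3:**
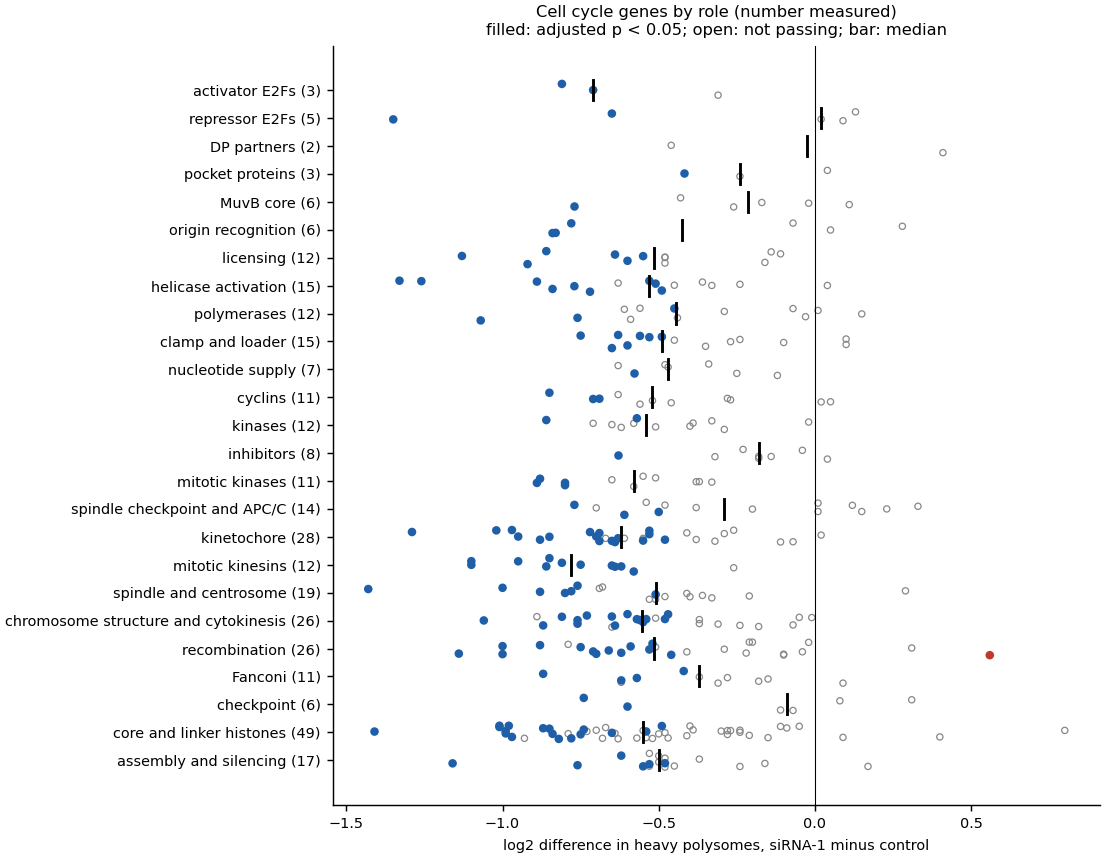
Difference between siRNA-1 and control siRNA in heavy polysomes on the log2 scale (horizontal axis) for each measured member of the 6 cell cycle lists, by role, with the number measured in brackets. Filled points passed limma's test at an adjusted p under 0.05 (blue lower, red higher), open points did not, and bars mark medians, which lie lowest for the mitotic kinesins (-0.78) and the activator E2Fs (-0.71).

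Genes at the centre of the study were mostly not called. DEPDC1B, a protein tied to cell division and ERK signalling, gave 7.67, 7.43 and 7.60 with siRNA-1 and 8.27, 8.48, 8.10 and 8.42 with control siRNA (-0.76 ± 0.139, 1.69-fold lower, adjusted p = 0.00458), and it kept its call without any single array. Its difference between siRNA-1 and siRNA-2 did not pass (adjusted p = 0.0744). MYCN gave 12.05, 11.88 and 12.04 with siRNA-1 and 12.31, 12.25, 12.35 and 12.28 with control siRNA. The groups did not overlap, but the difference of -0.31 ± 0.104 did not pass (adjusted p = 0.0951). With array weights it did (-0.35, adjusted p = 0.0394), and over the other alternatives the adjusted p ran up to 0.3. RPL35, a protein of the large ribosomal subunit, differed by -0.09 (adjusted p = 0.804), and TUBB2A, TUBB2B, DDX42, ILF2, H1-10 and MAPK3 had adjusted p between 0.529 and 0.926. Of 13 such genes 10 were measured and 2 fell, E2F1 and DEPDC1B (20%, against 3.23% of all clusters). Without siRNA-1 replicate 2 the count was 1.

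The translation machinery showed few calls, at shares near or below those over all clusters (5.68% higher, 3.23% lower). Of 46 measured cytosolic ribosomal proteins 1 fell (2.17%) and none rose. That gene, RPL6, gave 10.39, 10.11 and 10.44 with siRNA-1 and 10.89, 10.95, 10.87 and 10.88 with control siRNA (-0.58 ± 0.117, adjusted p = 0.00768), and the median of the list was -0.08. The list had 3 genes lower without siRNA-1 replicate 1 and 2 without control replicate 4. Of 46 translation factors 1 rose (2.17%), MCTS1 (0.63, adjusted p = 0.00776), and 2 fell (4.35%). One was EIF4EBP1, a repressor of cap-dependent translation that mTOR switches off, which gave 9.38, 8.97 and 8.93 with siRNA-1 and 10.21, 10.25, 9.60 and 9.56 with control siRNA (-0.81 ± 0.198, adjusted p = 0.0209), and the other was EIF5A2 (-0.57, adjusted p = 0.0442). Neither was called without control replicate 2, siRNA-1 replicate 2 or siRNA-1 replicate 4, with adjusted p up to 0.102 and 0.124. The call of EIF5A2 was also lost with siRNA-1 replicate 1, siRNA-2 replicate 3, control replicate 1 or control replicate 4 left out, and 2 factors rose without control replicate 1. Of 75 mitochondrial ribosomal proteins 2 fell (2.67%), of 68 respiratory chain genes 1 rose and 1 fell (1.47% each), and of 28 proteasome genes none passed. Over single left-out arrays these counts ran between 1 and 4 lower and 0 and 2 higher for the mitochondrial ribosome, and between 0 and 1 lower and 0 and 2 higher for the respiratory chain. G3BP1, a core protein of stress granules, was the 1 gene of the 18 in its list that passed. It gave 8.69, 8.46 and 8.72 with siRNA-1, 9.05, 8.75 and 9.21 with siRNA-2 and 9.55, 9.56, 10.06 and 10.02 with control siRNA. It differed from control by -1.17 ± 0.164 under siRNA-1 (adjusted p = 0.000975) and by -0.79 under siRNA-2, where it did not pass (adjusted p = 0.0602).

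Autophagy and lysosome genes were the pathway list with the highest share of rises. Of 44 measured, 12 rose (27.3%, against 5.68% of all clusters) and 2 fell, and the median was 0.35. The autophagy members gave 9 of 25 higher and none lower, and 2 of the 25 had values below 0. ATG14, a subunit of the lipid kinase complex that starts autophagosomes, gave 8.99, 9.17 and 9.08 with siRNA-1 and 8.37, 7.92, 7.92 and 8.04 with control siRNA (1.01 ± 0.131, adjusted p = 0.000618). OPTN, an autophagy receptor, gave 7.38, 7.62 and 7.35 with siRNA-1 and 6.56, 6.62, 6.56 and 6.66 with control siRNA (0.85 ± 0.113, adjusted p = 0.000693). In both genes every siRNA-1 array lay above every control array. The receptor NBR1 (0.98), the membrane-bound GABARAPL1 (0.99) and GABARAP (0.63), and the scaffold RB1CC1 (0.62) also rose. Among lysosome genes IGF2R, the sorting receptor for lysosomal enzymes (0.99), LAMP1 (0.76) and M6PR (0.71) rose, whereas the hydrolases GLA and GUSB fell (-0.54 each). The list had 6 genes higher and none lower without siRNA-1 replicate 2, and 1 lower without control replicate 3. GABARAP, GABARAPL1, NBR1, LAMP1, M6PR, GLA and GUSB were among the calls lost without siRNA-1 replicate 2, with adjusted p over single left-out arrays of up to 0.195 (NBR1). Leaving out control replicate 1 or 2, siRNA-1 replicate 4 or any of the siRNA-2 arrays ended the call of NBR1 too. LAMP1 was not called with control replicate 1 or 2 or siRNA-1 replicate 4 left out, GABARAPL1 without control replicate 3 or 4, M6PR without siRNA-1 replicate 1 and GUSB without control replicate 3.

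Axon guidance and adhesion genes moved in both directions, with 10 of 51 higher (19.6%, against 5.68% of all clusters) and 4 lower (7.84%, against 3.23%). Receptors made up 8 of the 10. NRP1, a co-receptor for semaphorins, gave 8.84, 9.12 and 8.83 with siRNA-1 and 7.58, 8.04, 8.06 and 7.68 with control siRNA (1.09 ± 0.178, adjusted p = 0.00226), and the class A plexins PLXNA1 and PLXNA3, which signal with it, rose by 1.04 and 0.70. PLXNC1, a receptor for another semaphorin, rose by 1.32. The ligand SEMA3E rose by 1.24, whereas the ligands SEMA6A (-0.78), SLIT3 (-0.52) and EFNB3 (-0.49) fell. The count of rises ran between 9 and 12 over single left-out arrays, but the count of falls was 0 without control replicate 2, siRNA-1 replicate 2 or siRNA-1 replicate 4, 1 without control replicate 1 and 2 without siRNA-2 replicate 2, control replicate 3 or control replicate 4. SEMA6A and EFNB3 each lost their calls without control replicate 1 or 2 or siRNA-1 replicate 2 or 4, and SLIT3 without any array but siRNA-1 replicate 1. Neuroblastoma identity genes were also mixed. Of 49 adrenergic genes 6 rose (12.2%) and 4 fell (8.16%). NPY, the neuropeptide, gave 10.44, 9.96 and 9.47 with siRNA-1 and 9.29, 9.11, 8.44 and 8.14 with control siRNA (1.21 ± 0.268, adjusted p = 0.0131), while HAND2, a transcription factor of sympathetic neurons, gave 9.10, 8.55 and 8.97 with siRNA-1 and 9.79, 9.81, 9.40 and 9.48 with control siRNA (-0.75 ± 0.157, adjusted p = 0.00954). Both calls were lost without siRNA-1 replicate 2, where 3 adrenergic genes rose and none fell, and without control replicate 2 or control replicate 3 the count of falls was 2.

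Markers of other cells moved in part. Among 9 measured fibroblast markers, LUM, DCN (0.90, adjusted p = 0.00663) and PDGFRA (0.86, adjusted p = 0.00226) rose and TWIST1 fell (-0.62, adjusted p = 0.0293). These shares were 33.3% higher and 11.1% lower, against 5.68% and 3.23% of all clusters. The median of the 9 markers was -0.08, and 6 of them had values below 0. The fall of TWIST1 was lost without control replicate 1, control replicate 2, siRNA-1 replicate 2 or siRNA-1 replicate 4. The summed linear signal of the fibroblast list ran between 2050 and 2350 in siRNA-1 arrays and between 1980 and 2210 in control arrays. Of 10 endothelial and epithelial markers 2 rose (20%, against 5.68% of all clusters) and none fell, with a median of 0.02 and 5 values below 0. EPCAM, an epithelial adhesion molecule, gave 6.81, 7.22 and 6.70 with siRNA-1 and 5.05, 5.18, 5.31 and 5.12 with control siRNA (1.75 ± 0.162, adjusted p = 6.15e-05), and KRT19 rose by 0.44 (adjusted p = 0.0387), a call that was kept without siRNA-2 replicate 3 or control replicate 4 and lost without any other array. The epithelial keratins KRT8 and KRT18 differed by -0.15 and -0.23 and CDH1 by 0.14, and none of these passed (adjusted p between 0.469 and 0.781). The summed linear signal of the list ran between 728 and 881 in siRNA-1 arrays and between 684 and 771 in control arrays. No glial or immune marker passed.

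Stress and death pathways gave smaller counts. SLC7A11, the cystine transporter and a target of ATF4 and NRF2, gave 7.72, 7.66 and 7.37 with siRNA-1, 8.76, 8.67 and 8.17 with siRNA-2 and 6.79, 6.23, 6.18 and 6.36 with control siRNA. siRNA-1 raised it by 1.19 ± 0.178 over control (adjusted p = 0.00136) and siRNA-2 by 2.14 (adjusted p = 0.000254), and it was lower with siRNA-1 than with siRNA-2 (adjusted p = 0.00747). The ATF4 list as a whole had 2 of 44 genes higher and 3 lower with siRNA-1, with medians of -0.12 for siRNA-1 and 0.45 for siRNA-2, and in the test between the siRNAs 20 of the 44 were lower with siRNA-1 (the share over all clusters was 3.26%). The count of falls was 0 or 1 when any single array other than control replicate 1 or siRNA-1 replicate 1 was left out, and the count of rises was 1 without siRNA-1 replicate 1 or 2. Over all clusters 5.68% rose and 3.23% fell. Of 27 p53 targets 4 rose (14.8%) and 3 fell (11.1%). Without siRNA-1 replicate 2, control replicate 3 or control replicate 4 those counts were 2 and 1, and 1 fell without control replicate 2. Of 30 apoptosis regulators 5 rose (16.7%) and 4 fell (13.3%). CASP8, the initiator caspase of death receptors, gave 5.03, 5.42 and 4.71 with siRNA-1 and 3.71, 3.86, 4.13 and 3.92 with control siRNA (1.15 ± 0.192, adjusted p = 0.00261), its inhibitor CFLAR rose by 0.95 (adjusted p = 0.00216), and APAF1, the core of the apoptosome, fell by 0.88 (adjusted p = 0.00239). The count of rises was 3 without control replicate 1, control replicate 2 or siRNA-1 replicate 2, and that of falls was 2 without control replicate 2 or siRNA-1 replicate 2. Of 49 interferon and RNA sensing genes 5 rose (10.2%) and none fell, led by SAMD9 and PARP14 (1.38, adjusted p = 0.000778). RIGI, a sensor of double-stranded RNA, was dim in every array and gave 3.63, 3.69 and 3.69 with siRNA-1 and 3.03, 2.89, 3.01 and 3.33 with control siRNA. The interferon count was 2 without siRNA-1 replicate 2, 3 without control replicate 2 or siRNA-1 replicate 4, and RIGI was not called without siRNA-1 replicate 2.

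Genes of small RNA pathways, which include the Argonaute proteins that bind siRNAs, had 3 of 14 members higher (21.4%, against 5.68% of all clusters) and none lower. AGO4 gave 7.09, 7.14 and 6.6 with siRNA-1 and 5.98, 5.57, 5.96 and 5.62 with control siRNA (1.16 ± 0.166, adjusted p = 0.00107), AGO3 rose by 0.78 (adjusted p = 0.00624) and LIN28B, a repressor of let-7 maturation, by 0.72 (adjusted p = 0.012). The glucose-sensing arrestins ARRDC4 and TXNIP rose by 1.5 and 1.22. TXNIP gave 9.39, 9.43 and 8.97 with siRNA-1, 9.03, 9.20 and 9.07 with siRNA-2 and 7.89, 8, 8.20 and 8.11 with control siRNA, and it was higher than control with siRNA-2 too (1.05, adjusted p = 0.00533). MXD1, which competes with MYC proteins for their partner MAX, gave 8.41, 8.97 and 8.83 with siRNA-1 and 7.23, 7.50, 7.48 and 7.47 with control siRNA (1.32 ± 0.142, adjusted p = 0.000198). The call of LIN28B was lost without siRNA-1 replicate 2.

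**Figure D4:**
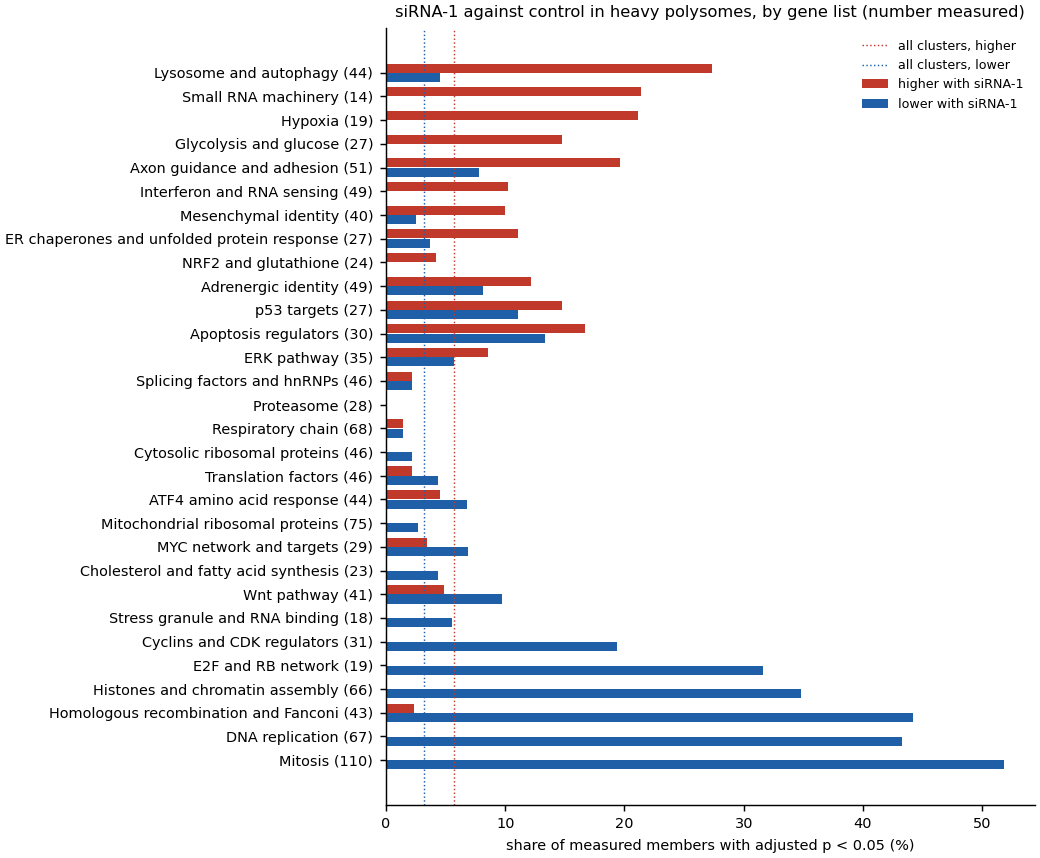
Share of the measured members of each gene list that passed limma's test in heavy polysomes (horizontal axis, percent), red for higher and blue for lower with siRNA-1, with the number measured in brackets. Dotted lines mark the shares over all clusters (5.68% higher, 3.23% lower), and the mitosis list reaches 51.8% lower and the lysosome and autophagy list 27.3% higher.

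Both siRNAs against lncNB1 were set side by side, and they gave different heavy polysome profiles. Against the same 4 control arrays, siRNA-2 changed 36 clusters upwards (0.168%) and 53 downwards (0.247%), and in the direct test 1178 clusters were higher with siRNA-1 than with siRNA-2 (5.49%) and 699 lower (3.26%). The 6 cell cycle lists had 1 member higher and 2 lower with siRNA-2, with a median of -0.03. These comparisons share arrays, so the values of single genes are set side by side. CEP55 differed from control by -1.43 with siRNA-1 and -0.04 with siRNA-2, CLSPN by -1.26 and 0.14, and ATG14 by 1.01 and 0.29. DKK1, a secreted Wnt antagonist, gave 6.64, 6.27 and 6.21 with siRNA-1, 6.41, 6.41 and 6.06 with siRNA-2 and 7.54, 7.86, 7.61 and 7.28 with control siRNA. It fell under both, by 1.20 under siRNA-1 (adjusted p = 0.000747) and by 1.28 under siRNA-2 (adjusted p = 0.00493). Which siRNA lowered lncNB1 further was not tested. The direct test gave fewer calls when some arrays were left out. Leaving out siRNA-1 replicate 2 gave 650 higher and 279 lower, leaving out siRNA-2 replicate 2 gave 623 higher and 285 lower, leaving out siRNA-2 replicate 3 gave 698 higher and 427 lower, and leaving out siRNA-2 replicate 1 gave 457 lower.

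Many of the siRNA-1 changes were also called in light polysomes. In the light arrays 1130 clusters were higher with siRNA-1 (5.27%) and 1356 lower (6.32%). Of the 1219 clusters higher in heavy polysomes 665 were also called higher in light ones (54.6% of the heavy and 58.8% of the light calls), and of the 693 lower ones 512 were also lower (73.9% of the heavy and 37.8% of the light calls). No cluster was called in opposite directions. The 6 cell cycle lists had 223 of 336 members lower in light polysomes, with a median of -0.64. When the light array of siRNA-1 replicate 2 was left out, 689 clusters were higher and 842 lower.

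Whether siRNA-1 moved mRNAs between the fractions was tested by subtracting the light from the heavy log2 signal of arrays that share a treatment and a number, and comparing these differences between groups. No cluster of 21448 passed limma's test (0%; smallest adjusted p = 0.231), while 1206 had an unadjusted p under 0.05. The median shift of the 6 cell cycle lists was 0.12, against 0.03 over all clusters. The 3 genes with the smallest p were GDF9, MIGA1 and SLITRK6, and none passed. SLITRK6 gave 6.49, 6.50 and 5.84 in heavy and 7.38, 8.06 and 7.76 in light arrays with siRNA-1, against 3.57, 4.09, 3.75 and 4.04 in heavy and 4.10, 4.22, 3.67 and 3.76 in light arrays with control siRNA, a shift of -1.38 ± 0.245 towards light polysomes. GDF9, a growth factor, had a shift of -1.43, and MIGA1, a protein of mitochondrial fusion, of 0.91 towards heavy polysomes. Within a group, the heavy and light arrays of one number deviated from their group means with correlations of -0.055 to 0.226 over all clusters. In a fit of all 20 arrays without the match, chosen after seeing the data, again none passed (smallest adjusted p = 0.136; 1119 with an unadjusted p under 0.05).

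**Figure D5:**
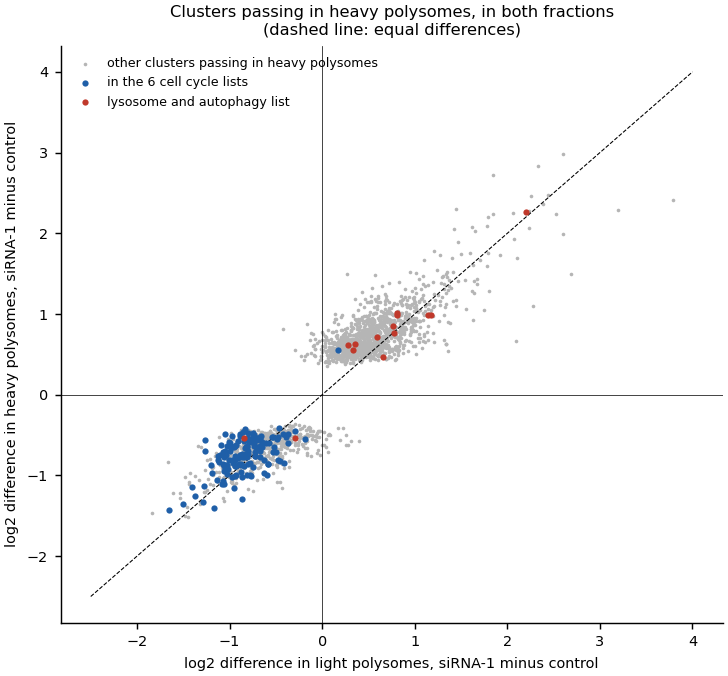
Difference between siRNA-1 and control siRNA in heavy polysomes (vertical axis) against the same difference in light polysomes (horizontal axis), both on the log2 scale, for the clusters that passed in heavy polysomes. Blue points are members of the 6 cell cycle lists and red points lysosome and autophagy genes. The dashed line marks equal differences, and the point furthest right is SLITRK6.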

How the data were processed

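The authors made the values with RMA (background correction, quantile normalization and probe summary) in oligo and deposited log2 signals. Versions named in the submitters' notes are R 3.5.3 and limma 3.38.3. The genome build, and whether the 2 fractions were normalized in a single run, are not given in the sources used here. Of 27189 probe sets, 5741 were left out and 21448 clusters tested, of which 17709 had 1 gene symbol in the platform annotation, 0 several and 3739 none. A symbol with several clusters (20) was represented by the one with the highest mean, and 77 Y-linked clusters were not named.

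Groups came from sample titles. limma 3.58.1 in R 4.3.3 (lmFit, eBayes) was fitted to the 10 heavy arrays in 3 groups, so that siRNA-2 arrays shared in the estimate of the spread, and siRNA-1 minus control and siRNA-1 minus siRNA-2 were taken from that fit. Light arrays were fitted alike, and the shift on heavy minus light differences. p-values were adjusted (Benjamini-Hochberg) over all clusters with a threshold of 0.05. No minimum signal was set. Array depth does not apply, and the number of arrays limits the precision.

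The gene lists (1394 symbols, 1246 measured) and the comparison were chosen with earlier results of these data known. Genes were named as the 15 largest changes in each direction among those called, up to 6 members per list with the smallest p, the genes named in the study, and the 3 smallest p of the shift. List members outside this rule, such as E2F3, KIF2C, FOXM1, RAD50, PCNA and NBR1, were chosen after their values were seen. Promoters matched by gene ID came from RefSeq. Protein lengths, the siRNA sequences and the level of lncNB1 were not analysed here. Alternatives covered array sets, array weights, the variance model, normalization, dim clusters, a fold threshold, the replicate block and leaving out each array.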

Additional observations from a re-analysis of the deposited data

Results flagged for a closer look

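Among 140 genes examined, 8 had a control heavy array far from the other 3 by Dixon's gap criterion. Chance alone does this for about 1 gene in 20. Control replicate 1 was the distant array for MXD1 (7.23, the others between 7.47 and 7.50), PI15 (7.70, the others between 7.94 and 7.98), EGLN3 (7.68, the others between 8.33 and 8.38) and ZNF25 (5.88, the others between 5.15 and 5.26). Control replicate 3 was distant for GLA (8.34, the others between 7.94 and 8.0) and SLIT3 (10.42, the others between 10.61 and 10.63). Control replicate 2 was distant for H1-10 (8.48, the others between 8.10 and 8.11), and control replicate 4 for RYR2 (3.99, the others between 3.44 and 3.53). In RYR2 and ZNF25, where the distant array was the highest control array, all siRNA-1 arrays lay above it. In MXD1 and PI15 they did too, but there it was the lowest control array, so this says little. Only the 4-array control group could be examined in this way.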

How the results depend on the processing

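The direction of each gene that the naming rule covers or the text reports was unchanged under every alternative in which either value passed the test; over these genes and alternatives 4370 outcomes kept their side of the threshold, 313 lost a call and 107 gained one. The counts of clusters changed in heavy polysomes (1219 higher, 693 lower) ran over single left-out arrays between 647 and 1202 and between 266 and 764. With array weights 1158 clusters were lower, and with a 1.5-fold minimum 442. The falls in the 6 cell cycle lists (140) ran between 62 and 144, the rises in the lysosome and autophagy list (12) between 6 and 14 and those in the axon guidance list (10) between 9 and 12. siRNA-1 against siRNA-2 (1178 and 699) ran between 623 and 1214 and between 279 and 752, and siRNA-1 in light polysomes (1130 and 1356) between 689 and 1153 and between 842 and 1245. The shift stayed at 0 in both directions. Replicate numbers are shared only in part across treatments, and the main fit left them out. Control arrays had numbers 1 to 4, siRNA-1 arrays 1, 2 and 4, and siRNA-2 arrays 1, 2 and 3. Of 8 same-numbered pairs of heavy arrays, 6 had deviations from their group means that correlated over 0.1 (range over the 8, 0.019 to 0.62). By the same measure 7 of 10 arrays were closest to one of their own number. These values do not show that the numbers can be ignored, and the labels do not say whether they mark pairs. With the replicate block the counts were 2063 higher and 1438 lower in heavy polysomes, 211 cell cycle falls, 21 lysosome and autophagy rises, 16 axon guidance rises, and 1934 higher and 1385 lower for siRNA-1 against siRNA-2. The cause of these movements was not tested. The 3 and 4 arrays a group limit what small differences can pass, and dim clusters sit near the floor of the array.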

Other observations

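Zinc finger genes rose in number. Of 492 clusters with a symbol beginning ZNF and a digit, most of them DNA-binding repressors, 107 were higher in heavy polysomes with siRNA-1 (21.7%, against 5.68% of all clusters) and 1 was lower. Of the 237 on chromosome 19, where such genes lie in tandem, 80 rose (33.8%), and of the 255 elsewhere 27 rose (10.6%). ZNF610 gave log2 signals of 7, 7.38 and 7.08 with siRNA-1 and 5.85, 5.59, 5.59 and 5.86 with control siRNA (difference 1.43 ± 0.13 SE, adjusted p = 5.35e-05), ZNF223 gave 6.94, 6.82 and 6.75 with siRNA-1 and 5.61, 5.50, 5.23 and 5.59 with control siRNA (1.35), and ZNF25 rose by 1.51. In light polysomes 108 of the 492 were higher and 12 lower, and with siRNA-2 in heavy polysomes 4 were higher and none lower. Without siRNA-1 replicate 2 the number higher in heavy polysomes was 65, and without siRNA-1 replicate 1 the number lower was 7. The group was noticed in the results and then counted, so it carries no test, and close copies can share probe matches.

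The clustered protocadherins, cell adhesion proteins of neurons, showed a like picture. Of 16 PCDHB genes 8 rose (50%, against 5.68% of all clusters) and none fell, with a median of 0.50. PCDHB8 gave 7.43, 7.26 and 7.14 with siRNA-1 and 6.20, 6.25, 5.96 and 6 with control siRNA (1.18 ± 0.138, adjusted p = 0.000343). The count of rises over control was 3 without siRNA-1 replicate 1 and 4 without siRNA-1 replicate 2, control replicate 2 or control replicate 4. In the test of siRNA-1 against siRNA-2, 3 of the 16 were higher with siRNA-1 (5.49% over all clusters). Of 18 histone demethylase clusters with a symbol beginning KDM and a digit, 6 rose (33.3%, against 5.68% of all clusters) and none fell. In the test of siRNA-1 against siRNA-2, 2 of the 18 were higher with siRNA-1. The largest rise was that of KDM5B, with 8.63, 9.13 and 9.02 with siRNA-1 and 6.94, 7.38, 7.01 and 7.37 with control siRNA (1.75 ± 0.172, adjusted p = 9.62e-05). The call of KDM3A was lost without siRNA-1 replicate 2, among other arrays. These genes too were chosen after their values were seen, and what drives the changes was not tested.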
